A study of Mus musculus with 9 samples.

Results

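The columns described here are barcode columns of mouse blood that were deposited as a T cell class named foxP3 and in which hemoglobin transcripts made up 20% or more of the signal. A column is the signal of 1 barcode over all genes. The class held 331 of the 4310 deposited blood columns, and 230 of them met the rule, which is 69.5% of the class and 5.34% of all columns. The columns were chosen by the summed signal of the rows of the alpha globin (Hba) and beta globin (Hbb) loci, so the hemoglobin level of these columns is a description and not a finding. The study profiled blood, labelled PBMC (peripheral blood mononuclear cells), of 9 female 129SvE mice by Seq-Well, in which cells are captured with barcoded beads in small wells. The arthritic group was 5 mice labelled with rheumatoid arthritis at disease stages from 1.5 to 2.5, a mouse model of joint inflammation, and the healthy group was 4 mice at stage 0. The labels state neither the age of the mice nor how arthritis was induced, and they name no other allele or agent.

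Of the 230 columns, 203 came from arthritic mice and 27 from healthy mice. Arthritic mouse 4 alone gave 174 of them, or 75.7%, while arthritic mice 5 and 6 gave 13 and 16, and arthritic mice 1 and 3 gave 0 of their 23 and 16 columns of the class. Healthy mice 1, 2, 3 and 4 gave 2, 3, 14 and 8. Comparisons between groups used the mice with 5 or more such columns, which are arthritic mice 4, 5 and 6 and healthy mice 3 and 4. Their columns summed to 1922670, 196214 and 172886 signal in the arthritic mice and 175875 and 79953 in the healthy mice, so that the healthy values rest on less material. Columns were not independent of each other. Of the 230, 129 were identical to another deposited column and 49 to a column of another mouse, which left 143 distinct profiles, and 8 columns of healthy mice equalled a column of an arthritic mouse. Columns identical to one of another mouse numbered 26 of 174, 5 of 13 and 8 of 16 in arthritic mice 4, 5 and 6. In healthy mice 3 and 4 they numbered 4 of 14 and 5 of 8. The mice are thus not fully independent replicates. No barcode of these columns occurred in another mouse. How different barcodes came to hold the same values is not stated in the labels, so shares of columns are not read as shares of cells.

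Hemoglobin carries oxygen in red cells and is built of alpha and beta globin chains around heme. Its transcripts rise to very high levels in late erythroid precursors and persist in reticulocytes, the young red cells that have lost the nucleus and clear their organelles, while transcripts of the early erythroid programme, such as those of the transcription factor Klf1, are lost. Foxp3 is the transcription factor that marks regulatory T cells, which hold back immune responses.

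The genes whose levels carry the description below sit at known erythroid loci. By GENCODE M21 on GRCm38, Hbb-bs lies at chr7:103826534-103828096 on the minus strand. It is the adult beta globin row with the most signal in these columns. Hba-a1, an adult alpha globin gene, lies at chr11:32283511-32284465 on the plus strand. Positions and sequences are those of the reference build, and which beta globin alleles these mice carry was not tested. Alas2, the erythroid enzyme that starts heme synthesis, lies at chrX:150547375-150570638, and Bpgm, which makes the 2,3-bisphosphoglycerate that lowers the oxygen affinity of hemoglobin, at chr6:34476207-34505613, both on the plus strand. The 250 bases before the RefSeq start of each gene are shown (GRCm38.p6), with Hbb-y, an embryonic beta-like globin gene, added because its row is discussed below. They are given 5′ to 3′ on the strand of the gene, and capitals mark matches on either strand to the GATA motifs AGATAA and TGATAA, the CACCC motifs CCACCC and CACACCC, and CCAAT.
Hbb-bs: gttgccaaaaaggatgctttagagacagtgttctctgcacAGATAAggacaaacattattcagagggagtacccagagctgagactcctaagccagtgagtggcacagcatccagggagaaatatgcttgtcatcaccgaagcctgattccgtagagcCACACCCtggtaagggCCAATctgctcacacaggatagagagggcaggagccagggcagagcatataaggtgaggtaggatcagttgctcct
Hbb-y: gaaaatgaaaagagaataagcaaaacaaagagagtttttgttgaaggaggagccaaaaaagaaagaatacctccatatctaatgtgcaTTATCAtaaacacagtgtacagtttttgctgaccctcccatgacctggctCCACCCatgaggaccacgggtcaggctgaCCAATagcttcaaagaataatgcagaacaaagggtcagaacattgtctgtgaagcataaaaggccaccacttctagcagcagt
Hba-a1: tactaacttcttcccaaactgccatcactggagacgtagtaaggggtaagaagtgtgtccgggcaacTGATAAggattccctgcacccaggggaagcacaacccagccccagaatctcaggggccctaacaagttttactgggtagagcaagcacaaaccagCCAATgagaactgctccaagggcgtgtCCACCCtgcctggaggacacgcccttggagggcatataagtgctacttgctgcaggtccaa
Alas2: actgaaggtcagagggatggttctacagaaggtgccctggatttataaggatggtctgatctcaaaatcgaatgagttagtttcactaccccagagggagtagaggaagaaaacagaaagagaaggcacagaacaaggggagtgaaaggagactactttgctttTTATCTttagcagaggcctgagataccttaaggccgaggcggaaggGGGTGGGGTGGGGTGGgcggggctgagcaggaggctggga
Bpgm: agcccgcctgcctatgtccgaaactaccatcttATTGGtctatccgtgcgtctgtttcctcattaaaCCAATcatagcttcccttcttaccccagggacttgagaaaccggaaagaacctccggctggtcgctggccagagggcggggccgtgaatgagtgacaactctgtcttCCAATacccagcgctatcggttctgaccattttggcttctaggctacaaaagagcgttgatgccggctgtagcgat
These windows are chr7:103827929-103828178 and chr7:103853208-103853457 on the minus strand, and chr11:32283422-32283671, chrX:150547167-150547416 and chr6:34476106-34476355 on the plus strand. Hbb-bs, Hbb-y, Hba-a1 and Alas2 each held 1 GATA match, against 16.6% of all 32851 windows of this length with at least 1. The same 4 genes held a CACCC match, against 32.7% of all windows, and the 3 in Alas2 overlap each other. A CCAAT match was found in Hbb-bs, Hbb-y, Hba-a1 and Bpgm, against 33.8% of all windows, and Bpgm held no GATA or CACCC match. GENCODE M21 places the outer start of these genes further upstream than RefSeq does. Of the 250 bases, 168 in Hbb-bs, 9 in Hbb-y, 161 in Hba-a1, 42 in Alas2 and 149 in Bpgm therefore lie inside the gene as GENCODE gives it. The window of Hba-a1 equals that of Hba-a2 at all 247 bases that the 2 windows share after a shift of 3 bases. A match of letters is no evidence of binding.

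The hemoglobin share ranged from 21.3% to 78.3% of the signal of a column, with a median of 51.7%. The 3 columns nearest to the threshold from above were at 21.3%, and the 3 nearest from below were at 18.3%, 19.1% and 19.1%. The columns of the class under 20% numbered 101, with a median share of 0.362%, and 82 of these lay under 5%. In the summed signal of each mouse, hemoglobin took 50.5%, 67.0% and 43.1% in arthritic mice 4, 5 and 6 and 56.8% and 41.8% in healthy mice 3 and 4, and the groups overlapped. The median column held 2425 genes with signal, against 3383 in the hemoglobin-poor columns of the class.

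**Figure D1:**
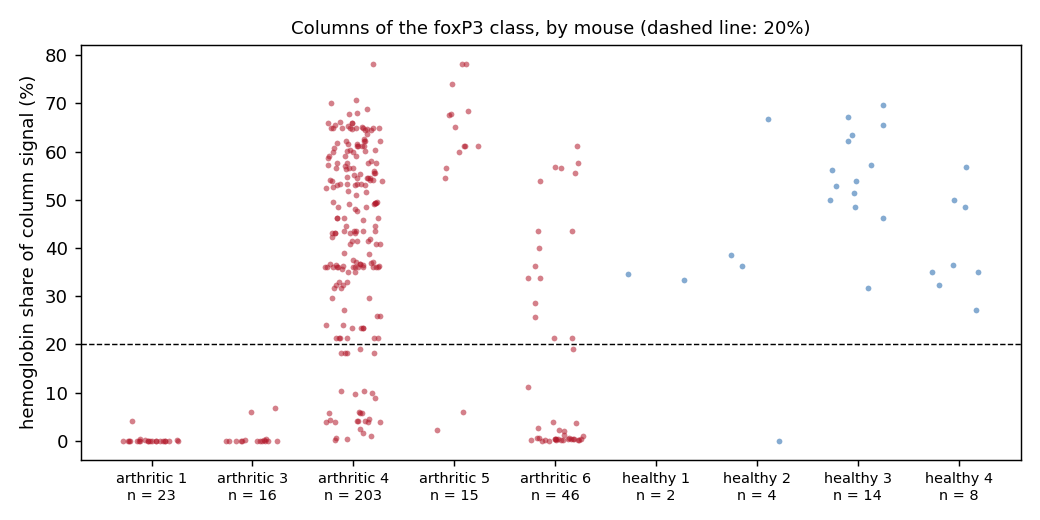
Hemoglobin share of the signal of each column of the foxP3 class (y axis, percent), by mouse (x axis, with the number of columns of the class), arthritic mice in red and healthy mice in blue, and 1 point a column with sideways jitter. Arthritic mice 1 and 3 have no column above the dashed 20% line, and 27 of the 28 columns of healthy mice lie above it.

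Within hemoglobin, adult globins dominated in every mouse. Hbb-bs made up 71.3%, 68.2% and 70.5% of hemoglobin signal in arthritic mice 4, 5 and 6, against 70.9% and 72.7% in healthy mice 3 and 4. Per 1000 Hbb-bs signal, Hba-a1 stood at 137, 165 and 129 in the arthritic mice and at 153 and 144 in the healthy mice, and Hbb-bt, the second adult beta globin gene, at 121, 134 and 122 and at 118 and 108. The groups overlapped for Hbb-bs and Hba-a1, while the Hbb-bt ratio was higher in each of the 3 arthritic mice. The ratio of Hba-a2 to Hba-a1, a pair of near-identical genes, lay between 0.742 and 0.765 in all 5 mice. In hemoglobin-rich columns of the progenitor class it was 0.231, 0.506 and 0.504 in arthritic mice 3, 4 and 5. Reads of globin genes this alike can be split between copies in the counting, so the levels of single globin rows are uncertain.

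Rows of the embryonic and minor globins were present at low levels. Hbb-bh1, Hbb-bh2, Hbb-bh3, Hbb-y, Hba-x and the pseudogene Hba-ps4 together made up 2.74%, 2.92% and 4.999% of hemoglobin signal in arthritic mice 4, 5 and 6, against 1.65% and 1.21% in healthy mice 3 and 4. The groups did not overlap, and the exact permutation p was 0.1, the smallest that 3 against 2 mice allow (two-sided, mean difference 2.12 percentage points, a comparison chosen after the values were seen). Of the mice under 5 columns, healthy mouse 2 stood at 3.25% in its 3 columns, within the arthritic range, and healthy mouse 1 at 1.21% in its 2 columns, below it. Over all columns of a mouse the share was 0.966%, 1.31%, 2.53%, 3.58% and 3.51% in arthritic mice 1, 3, 4, 5 and 6, and 1.85%, 3.33%, 1.46% and 1.22% in healthy mice 1 to 4 (exact permutation p = 0.571, two-sided), so the groups overlapped there. Over all columns the share was thus lower than in the columns described here in arthritic mouse 6, higher in arthritic mouse 5 and healthy mouse 1, and closer in the other 4 mice that held such columns.

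**Figure D2:**
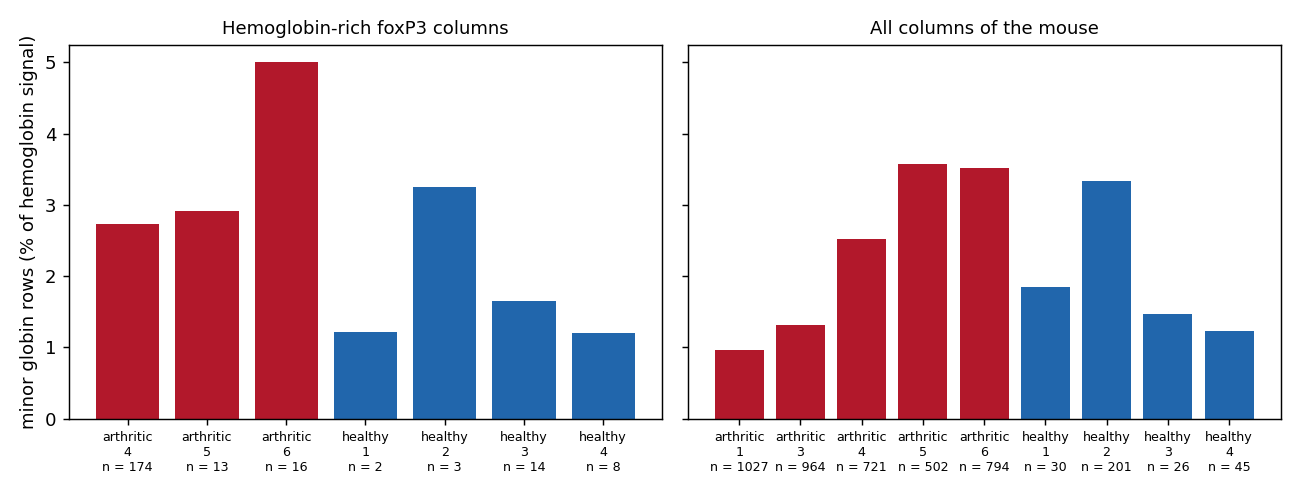
Minor globin rows as a percent of hemoglobin signal (y axis) by mouse (x axis, with the number of columns), in the hemoglobin-rich foxP3 columns (left) and in all columns of the mouse (right), arthritic mice in red and healthy mice in blue. The 3 arthritic mice on the left stand above healthy mice 3 and 4 but not all above healthy mouse 2 at 3.25%, and the groups overlap on the right.

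Some genes of late red cell development accompanied hemoglobin, but not all members of their lists did. Against the hemoglobin-poor columns of the same mouse, per non-hemoglobin signal, members differed by 2-fold or more in both directions. Of 13 heme synthesis genes, 2 were higher and 2 lower in arthritic mouse 4, and 4 higher and 5 lower in arthritic mouse 6. Of 17 organelle clearance genes, 7 were higher and 3 lower, and 4 higher and 6 lower, in the same mice. These counts took in all members, whatever their level. In the hemoglobin-rich columns of arthritic mouse 6, only 8 of the 13 and 11 of the 17 had signal. Members near 0 can pass 2-fold in either direction, so the counts do not show that members went against hemoglobin. Levels between mice are given as SPM, signal per 1000000 after scaling of the summed columns. Alas2 stood at 535, 785 and 256 SPM in arthritic mice 4, 5 and 6, against 729 and 404 SPM in healthy mice 3 and 4, and the groups overlapped. Bpgm was at 290, 579 and 247 SPM in the arthritic mice, against 247 and 174 SPM in the healthy mice, with arthritic mouse 5 highest. Fech, which inserts iron into heme, was at 226, 359 and 93.1 SPM in the arthritic mice, against 300 and 184 SPM in the healthy mice. Arthritic mouse 5 was the highest and arthritic mouse 6 the lowest of the 5 for Alas2 and Fech, and these mice also had the highest and nearly the lowest hemoglobin share. The mitophagy receptor Bnip3l, the ubiquitin ligase Mkrn1 and the membrane skeleton gene Epb41 lay between 97.8 and 632 SPM in the 5 mice.

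The ratio of these transcripts to Hbb-bs varied to different degrees. Per 1000 Hbb-bs signal, Alas2 was at 1.31, 1.32 and 1.05 in arthritic mice 4, 5 and 6 and at 1.58 and 1.81 in healthy mice 3 and 4. Hemoglobin-rich columns of the granulocyte, B and dendritic classes had an Alas2 ratio between 0.851 and 1.81, and those of the progenitor class between 1.37 and 1.40. Mkrn1 lay between 0.875 and 1.07 per 1000 Hbb-bs in the 5 mice, and between 0.829 and 1.64 in the other mature classes. Fech lay between 0.381 and 0.823 and Bnip3l between 0.400 and 0.823 in the 5 mice. The Alas2 ratio was lower in each of the arthritic mice than in both healthy mice. So was the Fech ratio, at 0.554, 0.603 and 0.381 against 0.649 and 0.823. The Mkrn1, Bnip3l and Bpgm ratios overlapped between the groups, and none of these ratios was tested between them. Bpgm lay between 0.536 and 1.01, against 0.302 to 0.932 in the other mature classes and 0.272 to 0.391 in the hemoglobin-rich progenitor columns. No test was made between kinds of columns, because the rule set their hemoglobin.

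Several erythroid genes were far lower relative to Hbb-bs than in progenitor columns. Klf1, the factor that drives adult globin genes in precursors, had 12 signal in the 174 columns of arthritic mouse 4 and was listed at 0 in arthritic mice 5 and 6 and in healthy mice 3 and 4. Trim58, an erythroid ubiquitin ligase, was listed at 0 in all 5 mice and is given without a progenitor value. Slc4a1, the band 3 anion exchanger, stood at 0.209, 0.402 and 0.400 per 1000 Hbb-bs in arthritic mice 4, 5 and 6 and at 0.226 and 0.823 in healthy mice 3 and 4, against 4.16 to 6.76 in the hemoglobin-rich progenitor columns. Car2, a carbonic anhydrase, reached 1.13 to 3.05, against 25.7 to 68.0, and the erythroid gene Hemgn 0.0705 to 0.370, against 2.98 to 3.85. The ranges of these 3 genes did not meet those of the progenitor columns, in contrast to that of Alas2, which overlapped. They did overlap those of the hemoglobin-rich granulocyte, B and dendritic columns, so these low ratios were not particular to the columns described here. Those columns had 0.0304 to 1.92 for Slc4a1, 0.152 to 7.62 for Car2 and 0 to 1.00 for Hemgn. The list of 10 early erythroid and stem cell genes took 0.0631% to 0.147% of non-hemoglobin signal in the 5 mice, against 0.0346% to 0.0658% in the hemoglobin-poor columns of the class and 0.216% to 0.464% in the hemoglobin-rich progenitor columns. The erythroid markers together, of which 17 of 19 had a row, made up 0.359%, 0.935% and 0.313% of non-hemoglobin signal in arthritic mice 4, 5 and 6, and 0.476% and 0.496% in healthy mice 3 and 4. The hemoglobin-poor columns of the class had 0.0186% to 0.159%.

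The label of the class was checked against T cell markers. All 18 T cell markers, among them the receptor chain gene Trbc2 and its signalling partner Cd3e, had signal in arthritic mice 4, 5 and 6 and healthy mouse 3, and 17 had it in healthy mouse 4, where Cd8a was listed at 0. Trbc2 was at 641, 286 and 433 SPM in the arthritic mice and at 417 and 294 SPM in the healthy mice, and the groups overlapped. Il7r, a survival receptor of resting T cells, was at 304, 173 and 168 SPM and at 241 and 147 SPM, and the helper T cell receptor Cd4 at 60.1, 26.6 and 60.5 SPM and at 39.1 and 36.7 SPM, in the same order of mice. The 18 markers together made up 0.534%, 0.346% and 0.507% of the non-hemoglobin signal in arthritic mice 4, 5 and 6, and 0.377% and 0.350% in healthy mice 3 and 4. The hemoglobin-poor columns of the class had 0.686%, 0.645%, 0.524% and 0.494% in arthritic mice 1, 3, 4 and 6. In arthritic mice 4 and 6, which held both kinds of columns, the values were therefore 0.534% beside 0.524% and 0.507% beside 0.494%. Hemoglobin-rich B columns had 0.252% to 0.327%, nearest to these, granulocyte columns 0.0338% to 0.130%, and progenitor columns 0.0148% to 0.0267%. Trbc2 had signal in 166 of the 174 columns of arthritic mouse 4, in all 13 and all 16 of arthritic mice 5 and 6, and in 13 of 14 and 5 of 8 columns of healthy mice 3 and 4. Alas2 had signal in 159, 13 and 15 columns of the same arthritic mice and in 14 and 7 columns of these healthy mice, so that most columns held both.

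Foxp3 itself was close to absent. Its row summed to 4 signal, all in arthritic mouse 4, in 4 columns that shared 1 profile, and it was listed at 0 in the other 4 mice compared and in healthy mice 1 and 2. The 6 markers of regulatory T cells together reached 0.00154% to 0.0139% of non-hemoglobin signal, against 0.0150% to 0.0522% in the hemoglobin-poor columns of the class. The data thus show T cell and late red cell transcripts in the same columns and go against the name foxP3, and they are called hemoglobin-rich columns of that class here. As in any pooled measure, fewer cells of a type and less RNA per cell cannot be told apart.

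Markers of other cell types were present beside these. The 18 granulocyte markers made up 0.865%, 2.06% and 1.11% of non-hemoglobin signal in the arthritic mice and 1.67% and 1.03% in the healthy mice, against 0.400% to 0.758% in the hemoglobin-poor columns. The 12 B cell markers lay between 0.150% and 0.295%, and the 16 NK cell markers between 0.0687% and 0.123%. The 14 monocyte and dendritic cell markers took 0.419%, 0.449% and 0.510% in arthritic mice 4, 5 and 6, against 0.298% and 0.230% in healthy mice 3 and 4, with no overlap and at a level near that of the T cell markers. The hemoglobin-poor columns had 0.202% to 0.397% of these. Of the 12 platelet markers, 11 had a row and together reached 0.00814% to 0.0329%. Their part in the results below was not tested.

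Other programmes of late red cells were compared with the other kinds of columns as shares of non-hemoglobin signal. Genes for the clearance of organelles, such as Bnip3l, took 0.188%, 0.330% and 0.153% in arthritic mice 4, 5 and 6, and 0.242% and 0.219% in healthy mice 3 and 4. The hemoglobin-poor columns of the class had 0.0749% to 0.102%, and the hemoglobin-rich granulocyte columns 0.166% to 0.270%. Genes of heme synthesis took 0.169%, 0.332% and 0.104% in the arthritic mice and 0.258% and 0.198% in the healthy mice, against 0.608% to 0.809% in the hemoglobin-rich progenitor columns. The 24 proliferation genes took 0.183%, 0.322% and 0.153% in the arthritic mice and 0.273% and 0.299% in the healthy mice, against 1.48% to 2.10% in the hemoglobin-rich progenitor columns. The progenitor columns thus held more heme synthesis and proliferation signal, while clearance signal overlapped with theirs at 0.0967% to 0.230%. The row of the erythroid microRNA gene Mir451a was sparse, at 14, 1 and 0 signal in the arthritic mice and 0 and 3 in the healthy mice.

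**Figure D3:**
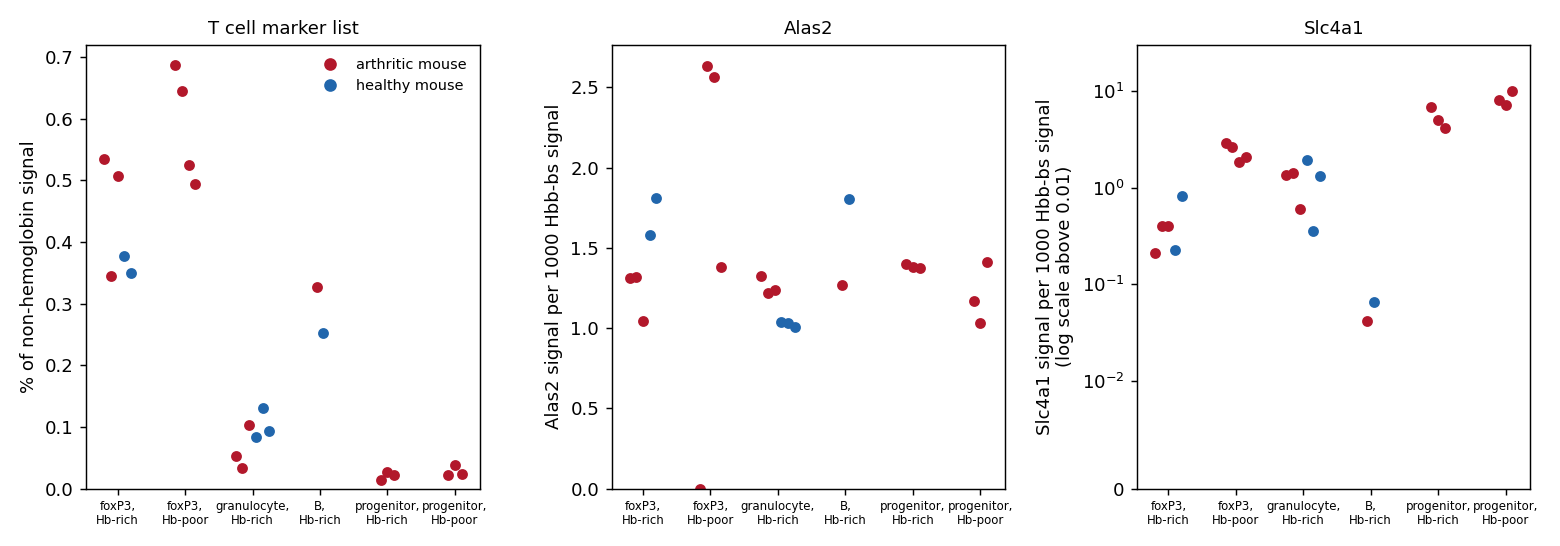
T cell marker list as a percent of non-hemoglobin signal (left), and Alas2 (middle) and Slc4a1 (right, log scale above 0.01) as signal per 1000 Hbb-bs signal, for kinds of columns (x axis), with 1 point a mouse, arthritic in red and healthy in blue. In T cell markers, the hemoglobin-rich foxP3 columns of arthritic mice 4 and 6 lie near the hemoglobin-poor columns of the class. Those of arthritic mouse 5 and healthy mice 3 and 4 lie below all hemoglobin-poor values, at 0.346%, 0.377% and 0.350%. The hemoglobin-rich foxP3 columns lie near the other hemoglobin-rich columns in Alas2 between 1.05 and 1.81, and below the progenitor columns in Slc4a1. The Hbb-bs signal of the hemoglobin-poor foxP3 columns is small, so their ratios are loose.

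Columns with more hemoglobin held more of the late red cell transcripts. In arthritic mouse 4, which had 51, 80 and 43 columns at hemoglobin shares of 20% to under 40%, 40% to under 60%, and 60% and over, Alas2 stood at 364, 1046 and 1709 per 1000000 of non-hemoglobin signal in these bins. Bpgm stood at 250, 498 and 987, and Fech at 185, 378 and 805. Ube2l6, an enzyme of ubiquitin and ISG15 transfer, stood at 77.1, 288 and 388. All 4 genes were in this order of bins. Slc4a1 was at 123, 153 and 196, and Klf1 at 12.3, 18.9 and 0. In arthritic mouse 6, Slc4a1 was at 39.6 and 309 in the lower bins, and in healthy mouse 3 at 263 and 120 in the upper bins, the opposite order. The T cell markers took 0.549%, 0.535% and 0.508% of non-hemoglobin signal. Arthritic mouse 6 had 7 and 8 columns in the lower bins, with Alas2 at 317 and 761, and healthy mouse 3 had 8 and 5 in the upper bins, with Alas2 at 1271 and 2046. In healthy mouse 3 the T cell markers took 0.320% and 0.529%, in the upward direction, on few columns. The hemoglobin share set the bins, so no test was made, and the 3 bins of arthritic mouse 4 held only 25, 53 and 32 distinct profiles. Granulocyte markers rose with the bins too in arthritic mouse 4, at 0.630%, 0.785% and 1.40%. They also rose in arthritic mouse 6, at 0.877% and 1.23% in the lower bins. In healthy mouse 3 they fell, at 1.81% and 1.46% in the upper bins. Their part was not tested.

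**Figure D4:**
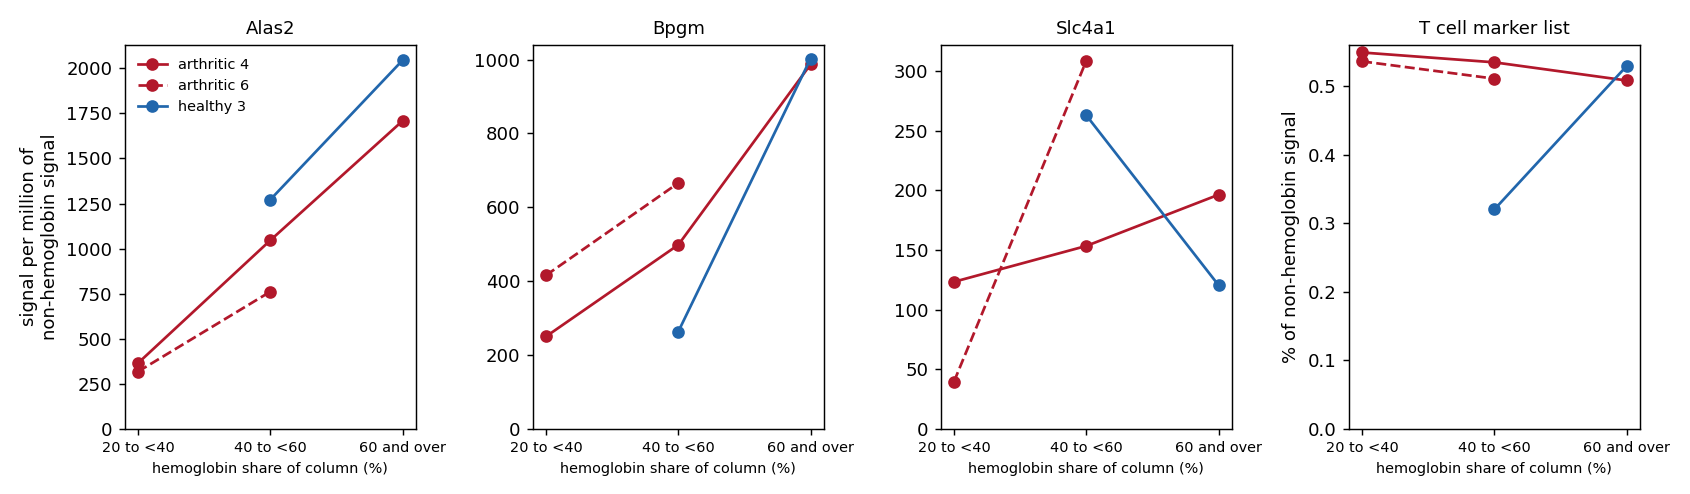
Alas2, Bpgm and Slc4a1 as signal per 1000000 of non-hemoglobin signal, and the T cell marker list as a percent of it (y axes), by hemoglobin share of the columns (x axis), in arthritic mice 4 and 6 (red) and healthy mouse 3 (blue). Each point is the summed signal of the columns of 1 mouse in 1 bin. Alas2 and Bpgm are higher in the higher bin in each of the 3 mice, whereas Slc4a1 and the T cell markers have no common direction.

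Hemoglobin-rich columns could be set against the hemoglobin-poor columns of the same mouse in arthritic mice 4 and 6. Only genes with at least 20 signal per 1000000 of all signal in the hemoglobin-rich columns of both mice were counted. This left out genes low there and high in the hemoglobin-poor columns. Counts of higher and lower genes can therefore not be weighed against each other. Per non-hemoglobin signal, 264 of 3465 genes (7.62%) were at least 2-fold higher in the hemoglobin-rich columns of both mice, and 29 (0.837%) 2-fold lower. Per total signal, of which hemoglobin took a large part, 84 of 3474 genes (2.42%) were at least 2-fold higher and 516 (14.9%) at least 2-fold lower. The 20 leading genes on total signal included 8 globin rows and Bpgm, which the choice of columns brings with it, and the rest were partly of other kinds. Sytl5, a synaptotagmin-like gene at chrX:9885622-9994543, stood at 140 and 220 signal per 1000000 of all signal in the hemoglobin-rich columns of arthritic mice 4 and 6 and was listed at 0 in their hemoglobin-poor columns. It had signal in 118 of 174 and 15 of 16 columns of these mice, in 11 of 13 of arthritic mouse 5, and in 8 of 14 and 1 of 8 columns of healthy mice 3 and 4. Apol11b, of the apolipoprotein L family, stood at 37.4 and 75.2, and the odorant receptor gene Olfr1136 at 31.2 and 57.8, both listed at 0 in the hemoglobin-poor columns. Epb42, which encodes the red cell protein 4.2, stood at 22.4 and 28.9, against 3.88 in the hemoglobin-poor columns of arthritic mouse 4 and 0 in those of arthritic mouse 6. Ighg1, an antibody heavy chain gene, was also among them, but its signal lay in 6 columns of arthritic mouse 4 and 1 of arthritic mouse 6. These are descriptions, since the same columns chose the genes.

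The first comparison between groups asked what share of a mouse's columns was of this kind. It was 0%, 0%, 24.1%, 2.59% and 2.02% in arthritic mice 1, 3, 4, 5 and 6, and 6.67%, 1.49%, 53.8% and 17.8% in healthy mice 1 to 4. The groups overlapped widely, with a mean of 5.75% ± 10.3 in arthritic and 19.9% ± 23.6 in healthy mice (SD over 5 and 4 mice; exact permutation p = 0.286, two-sided). Without healthy mouse 3, the difference of -14.2 percentage points became -2.90, and that mouse gave only 26 columns in all. Healthy mice gave few columns, so their shares are coarse.

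Mitochondrially encoded transcripts come from 26 rows. Their share of the non-hemoglobin signal was 11.1%, 12.97% and 12.7% in arthritic mice 4, 5 and 6, against 15.6% and 18.0% in healthy mice 3 and 4, and the groups did not overlap. The means were 12.2% ± 1.01 and 16.8% ± 1.75 (SD over 3 and 2 mice; exact permutation p = 0.1, two-sided, which no split can undercut, and 0.3 after adjustment over 3 measures). Healthy mouse 2, with 3 columns, stood at 12.2%, within the arthritic range. Transcripts of ribosomal proteins, from 353 rows that also include pseudogenes and ribosomal S6 kinases, took 11.5%, 7.76% and 10.8% in the arthritic mice, against 6.51% and 6.12% in the healthy mice, again with no overlap. The means were 10.02% ± 1.98 and 6.32% ± 0.272 (SD over 3 and 2 mice; exact permutation p = 0.2, two-sided, and 0.3 after adjustment). Healthy mouse 2 stood at 10.7% and healthy mouse 1 at 3.34%. The granulocyte markers averaged 1.35% ± 0.632 in arthritic and 1.35% ± 0.451 in healthy mice (SD over 3 and 2 mice; exact permutation p = 1, two-sided), and their groups overlapped. With all signal as the denominator, both separations were lost. The mitochondrial share was then 5.49%, 4.28% and 7.22% in the arthritic mice, against 6.72% and 10.5% in the healthy mice, and the ribosomal protein share 5.70%, 2.56% and 6.13%, against 2.81% and 3.57%, with its difference at 1.61 in place of 3.70 percentage points. None of the 3 measures could reach a p of 0.05 in this design.

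**Figure D5:**
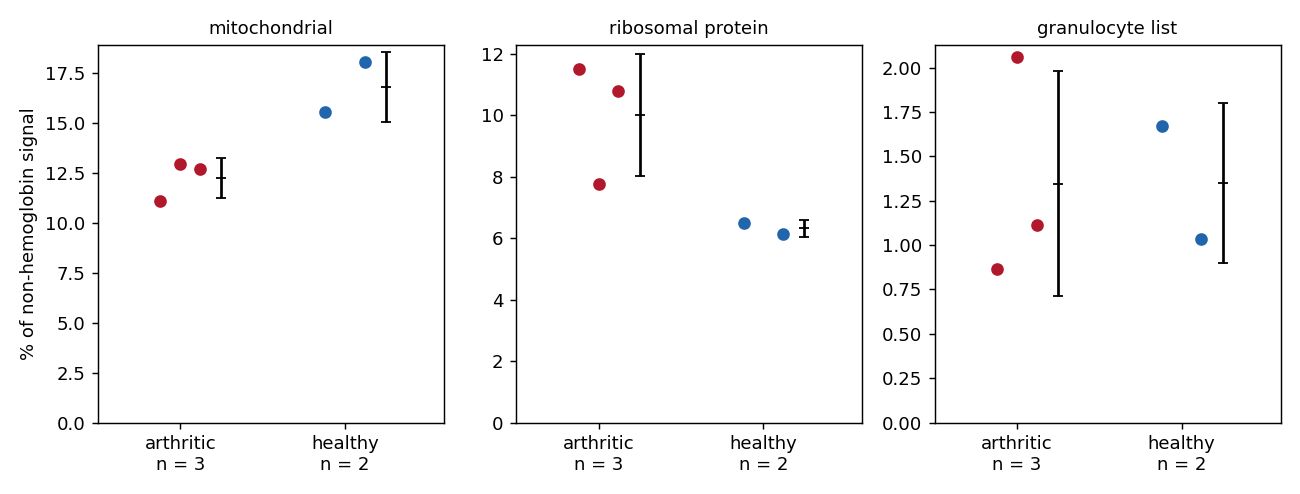
Mitochondrial, ribosomal protein and granulocyte list transcripts as a percent of non-hemoglobin signal (y axes) in the hemoglobin-rich foxP3 columns, with 1 point a mouse, 3 arthritic (red) and 2 healthy (blue), and black bars for the mean and SD. The mitochondrial share is lower and the ribosomal protein share higher in each arthritic mouse than in either healthy mouse, and the granulocyte share overlaps.

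Across genes, the fit between arthritic and healthy mice called no gene. In simulated data the same fit called 3.03% of 66 genes with a log2 change of 2. It called 44.23% of 52 genes with a log2 change of 4, and false calls numbered 5. The lack of calls therefore does not show equal levels. Of 7623 genes tested with limma, 0 (0%) passed an adjusted p of 0.05, 1296 (17%) had an unadjusted p under 0.05, and the smallest adjusted p was 0.175. All genes had a median log2 difference of 0.27, so values near it do not stand apart. Separation of the groups was common without a call, since 22.9% of the genes were higher in each arthritic mouse than in both healthy mice and 13.9% were lower in each. The count depended on the mice used: without arthritic mouse 4, limma called 556 genes, of which 277 were higher and 279 lower in the arthritic mice that remained, and without healthy mouse 3 it called 212, all higher, where healthy mouse 4 alone stands for the healthy group and is assumed to vary like the arthritic mice. With all mice that held at least 1 such column it called 166, all higher, where the healthy mice added have 2 and 3 columns and the median difference of all genes is 1.36.

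The erythroid genes did not separate the groups more often than other genes. Of 179 genes with a row among 11 erythroid lists, 138 passed the filter, and 26 (18.8%) were higher and 19 (13.8%) lower in each arthritic mouse without overlap, which is near the 22.9% and 13.9% of all genes. None was called, and their median log2 difference was 0.05, against 0.27 for all genes. The 138 include 9 globins, whose summed signal chose the columns. Of these 9, 4 were higher and 0 lower without overlap. Of the monocyte and dendritic cell markers, 6 of 9 tested (66.7%) were higher in each arthritic mouse without overlap, none was called, and their part in other differences was not tested. Among the globins, Hbb-y was at 4485, 7669 and 5248 SPM in arthritic mice 4, 5 and 6, against 2572 and 817 SPM in healthy mice 3 and 4, at a fitted log2 difference of 1.96 ± 0.52 SE and an adjusted p of 0.175 in limma. Hbb-bs had a fitted log2 difference of 0.28 ± 2.56 SE and an adjusted p of 0.964 in limma. Hbb-y and Hbb-bs are part of the globin sum that chose the columns, and Hbb-bs is most of it. Their p therefore cannot decide whether globin levels differ between the groups. Of the heme synthesis genes, 9 of 13 were tested, and Alas2 had a fitted difference of -0.19 ± 0.49 SE on the log2 scale (adjusted p = 0.867 in limma). Among 13 genes of organelle clearance, the autophagy gene Gabarapl2 was at 95.4, 86.5 and 74.5 SPM in the arthritic mice, against 182 and 138 SPM in the healthy mice, at a fitted log2 difference of -0.89 ± 0.33 SE and an adjusted p of 0.232 in limma. The nuclear export gene Xpo7, of the late erythroid list, was at 76.0, 106 and 88.5 SPM, against 39.1 and 36.7 SPM in the healthy mice, at a fitted log2 difference of 1.22 ± 0.39 SE and an adjusted p of 0.181 in limma. Bpgm had a fitted difference of 0.73 ± 0.41 SE on the log2 scale (adjusted p = 0.386 in limma).

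Among the tested genes of the iron list, 8 of 12 had a positive log2 difference, and among those of the oxidant list 13 of 16, with a median of 0.43 in each list beside 0.27 over all genes, and none was called. The iron storage gene Fth1 was at 1303, 1004 and 992 SPM in the arthritic mice, against 905 and 367 SPM in the healthy mice, at a fitted log2 difference of 0.92 ± 0.40 SE and an adjusted p of 0.296 in limma. Slc25a37, the mitochondrial iron importer mitoferrin, was at 89.5, 180 and 32.6 SPM, against 195 and 174 SPM in the healthy mice. Gpx1, a peroxidase of red cells and their precursors, was at 2214, 5248 and 1513 SPM, against 3021 and 1735 SPM in the healthy mice, and the groups overlapped. The chaperone gene Hsp90aa1 was at 181, 206 and 200 SPM, against 117 and 55.1 SPM in the healthy mice, at a fitted log2 difference of 1.27 ± 0.38 SE and an adjusted p of 0.175 in limma. None of these passed the threshold.

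The named genes with the smallest unadjusted p were of other kinds. Tfam, the factor that packages mitochondrial DNA, was at 79.5, 153 and 130 SPM in arthritic mice 4, 5 and 6, against 13.02 and 9.18 SPM in healthy mice 3 and 4, at a fitted log2 difference of 3.30 ± 0.50 SE and an adjusted p of 0.175 in limma. In the healthy mice this rested on 2 and 1 signal. Scand1 was at 138, 126.4 and 186 SPM, against 19.5 and 27.5 SPM in the healthy mice, and the pseudogene row Rpl32-ps, whose reads can be shared with Rpl32, at 580, 326 and 512 SPM, against 111 and 91.8 SPM. The clone-named row AC158620.2 was at 210, 133 and 237 SPM, against 32.6 and 36.7 SPM. Among named genes with lower values in arthritic mice, the smallest p was that of AF357399. It was at 54.2, 66.5 and 37.3 SPM in the arthritic mice, against 228 and 211 SPM in the healthy mice. Its fitted log2 difference was -2.08 ± 0.38 SE, at an adjusted p of 0.175 in limma. The inflammatory cytokine gene Il1b was at 75.4, 99.8 and 97.8 SPM, against 215 and 266 SPM in the healthy mice, at a fitted log2 difference of -1.40 ± 0.32 SE and an adjusted p of 0.175 in limma. Msl1, n-R5-8s1 and Phlda1 completed the lower direction, with log2 differences between -3.14 and -2.05. Where healthy mice 1 and 2, with 2 and 3 columns, entered as well, Msl1 stood at 0.23 and Phlda1 at 0.14. Both were still below the median of 1.36 of all genes in that setting.

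Il4, the cytokine of type 2 helper T cells and basophils, had the smallest p of all. It stood at 77.7, 59.9 and 130 SPM in arthritic mice 4, 5 and 6 and was listed at 0 in healthy mice 3 and 4 and also in healthy mice 1 and 2. Its signal lay in 26 of 174, 2 of 13 and 2 of 16 columns of the arthritic mice, and these 30 columns held only 12 distinct profiles, 3 of which occurred in more than 1 mouse. Mcpt8, a protease of basophils, was at 75.4, 86.5 and 74.5 SPM in the arthritic mice, against 0 and 18.4 SPM in the healthy mice, in 24 columns and 13 profiles, and 13 of the 30 columns with Il4 held it. The 8 basophil and mast cell markers together took 0.0341%, 0.0432% and 0.0488% of non-hemoglobin signal in arthritic mice 4, 5 and 6. In healthy mice 3 and 4 they took 0.00132% and 0.00859%. Il4 and Mcpt8 are themselves among these 8 markers, so this total restates their signal and is no separate evidence of basophils. The part of basophil signal in the Il4 level was not tested. In arthritic mouse 4, Il4 was at 259, 92.1 and 44.2 per 1000000 of non-hemoglobin signal from the lowest to the highest hemoglobin bin, in the order opposite to that of Alas2. The adjusted p of Il4 in limma, 0.175 in the 5 mice, ranged over the alternatives from 0.00924 without healthy mouse 3, which leaves 1 healthy mouse, to 0.90 with each distinct profile of 1 mouse counted once. It was 0.0289 without arthritic mouse 4 and 0.0165 where healthy mice 1 and 2 entered as well.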

How the data were processed

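Peripheral blood mononuclear cells of 5 arthritic and 4 healthy mice were read out by Seq-Well. Per the labels' protocols, reads were extracted with the Drop-seq core protocol, and build GRCm38.p5 is named in the submitters' processing notes. For the aligner and the naming of cell classes, nothing is stated in the labels. Values in the deposited table are signal, as whole numbers per gene and barcode column over 23499 genes. They were not treated as counts, because 1313 of 4310 columns are identical to another. Every column carried a mouse in its name.

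Columns of the class were kept at a hemoglobin share of 20% or more (10 Hba and Hbb rows). Signal was summed per mouse, and mice with 5 or more columns entered. TMM factors (trims of 30% and 5%) scaled the sums to signal per 1000000 (SPM), and log2(SPM + 1) entered limma 3.58.1 with a trend, in R 4.3.3. A gene was tested where 2 mice or more had 10 SPM, and called at an adjusted p (Benjamini-Hochberg) below 0.05. Fold changes understate those of low genes. Mice are the replicates, and the tests treat them as independent although some columns are shared between mice. For shares, all splits of the mice were enumerated in an exact permutation test, two-sided. Kinds of columns are compared per non-hemoglobin signal or per 1000 Hbb-bs signal. No counting intervals are given, since columns share content.

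The members, lists, markers and rules were chosen with earlier results of these data known. The rule for named genes takes the markers Hba-a1, Hbb-bs, Alas2 and Bpgm, and up to 10 genes per direction past the threshold with a mean of 20 SPM, or the 5 smallest p where none passes, without Gm and Rik models. It adds the 20 leading genes against hemoglobin-poor columns, and up to 5 members of each erythroid list by level and 2 by p. The text gives part of them, some genes are not reported here, and Il4, Mcpt8 and the minor globins were followed further after their values were seen. The fit was tested on simulated data. Alternatives changed the scaling, filter, pseudocount, threshold, identical columns, columns needed and mice. Positions are from GENCODE M21 and sequences from RefSeq. Python 3.11.15 with numpy 2.4.6 and pandas 2.3.3 did the remaining work.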

Additional observations from a re-analysis of the deposited data

Results flagged for a closer look

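The share of a mouse's columns that were hemoglobin-rich columns of the foxP3 class stood far above the others in arthritic mouse 4, at 24.1%, where the other arthritic mice lay between 0% and 2.59%. Among healthy mice with at least 1 such column, the granulocyte marker share of non-hemoglobin signal was far above the others in healthy mouse 1, at 4.92%, in 2 columns, where the other healthy mice lay between 1.03% and 1.67%. Chance flags about 1 in 20 groups of this size.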

How the results depend on the processing

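The count of called genes, 0 as reported, stayed at 0 under 7 other settings of scaling, filter, pseudocount and threshold, with each distinct profile of 1 mouse counted once, and without arthritic mouse 5, arthritic mouse 6 or healthy mouse 4. It was 166 with 1 column a mouse needs, and 267 when distinct profiles of 1 mouse were used as well, a setting chosen after seeing the data. Leaving out each mouse gave 0 to 556. At a threshold of 40%, with distinct profiles alone, or without healthy mouse 3 or 4, 1 healthy mouse remained, assumed to vary like the others. The scalings moved the median log2 difference of all genes between 0.12 and 0.46. The difference in granulocyte share, -0.00583 percentage points, lay between -0.363 and 0.313 without each mouse. The differences in column share, mitochondrial share, ribosomal protein share and minor globin share kept their direction under every setting tried, though the mitochondrial and ribosomal protein groups overlapped with all signal as the denominator, and none of their exact permutation p fell under 0.05. Without each mouse, the difference in column share lay between -20.3 and -2.90 points, in mitochondrial share between -5.80 and -3.32, in ribosomal protein share between 2.95 and 4.82, and in minor globin share between 1.40 and 2.53.

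Of the named genes, log2 differences changed sign in these cases, where the median of all genes stood at 1.36 with 1 column and 1.56 with distinct profiles as well, so the values are to be read against these medians. With 1 column a mouse needs they became 0.23 for Msl1, 0.14 for Phlda1, 1.46 for Klf13, 1.18 for Gabarapl2 and 1.98 for Btg2. With distinct profiles of 1 mouse as well they became 0.30 for Il1b, 1.41 for Msl1, 0.98 for Phlda1, -0.56 for Alas1, 0.54 for Ldb1, 1.62 for Klf13, 1.43 for Gabarapl2 and 2.51 for Btg2. Alas1 was at -1.28 with distinct profiles alone. No paired analysis was possible for the gene fit because the mice used share only number 4 between the groups. For the column share, a replicate block over the 3 shared mouse numbers gave -18.1 points (exact sign-flip p = 0.5), and nothing in the labels says that these numbers pair mice.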
